A study of Mus musculus with 10 samples.

Results

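Hedgehog and bone morphogenetic protein (BMP) signalling was followed through 10 genes in the ileum, the last stretch of the small intestine, of adult C57BL/6 mice. The genes were chosen by name, with earlier results of these data known. They were the Hedgehog ligands Shh and Ihh, the Hedgehog receptor and response genes Ptch1, Gli1 and Hhip, and the ligands Bmp2, Bmp4 and Bmp7. Further members were the BMP response gene Id1 and the stomach mesenchyme factor Barx1. All 10 were read by 15 of the 41143 array probes used. Of these genes 7, with 12 probes, passed the filter on dim signals and were tested among 19056 genes. Shh, Gli1 and Barx1 did not pass it.

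RNA was measured on 10 one-colour arrays, 2 for each of 5 groups. Every mouse that was given doxycycline (DOX), the drug that switches on a TetON transgene through the regulator rtTA, drank it at 2 mg/ml with 1% sucrose for 2 days at an age of 6 to 8 weeks. DOX went to the crossed TetON-Sox2 X TetON-Oct4 mice (Sox2xOct4 +DOX), to TetON-Oct4 mice (Oct4 +DOX), to TetON-Sox2 mice (Sox2 +DOX) and to rtTA controls that lack the TetOP-Sox2 transgene (rtTA +DOX). A further group of TetON-Sox2 mice, also 6 to 8 weeks old, had no DOX (Sox2 -DOX), and no sucrose is recorded for it. Sox2 and Oct4 (Pou5f1 in the array annotation) are pluripotency transcription factors, and Sox2 also marks the stomach and oesophagus. Which cells express rtTA is not stated in the labels. They also do not say whether the arrays of a group stand for different animals, so the p-values below rest on a spread between arrays that may be technical.

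In the gut, Hedgehog ligands are made by the epithelium and act on the mesenchyme beneath it. There they bind Ptch1, which releases Smoothened and turns Gli proteins into activators, and Ptch1, Hhip and Gli1 are themselves transcribed in response, the first 2 as brakes on the ligand. BMP ligands, several of which are made by mesenchyme and by mature villus cells, act through receptor serine kinases and Smad proteins, induce Id genes, and restrain proliferation in the crypts.

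Levels are given as log2 of the ratio of the signal to the 75th percentile of all probes on its array, so that 0 stands for the 75th percentile itself, and levels of different probes cannot be set against each other. On all arrays 63.5 to 70.5% of probes were well above background. Replicates correlated with r of 0.959 to 0.984 over the genes tested, each read by its brightest kept probe. Pou5f1 was well above background on the 2 Sox2xOct4 +DOX arrays (2.64 and 0.92) and the 2 Oct4 +DOX arrays (6.20 and 4.79) and on none of the other 6. The Sox2 probe stayed at background everywhere and so checks no label. Sox21, a related factor, was raised by its brightest probe on the Sox2xOct4 +DOX arrays (0.98 and 0.44) and the Sox2 +DOX arrays (3.33 and 1.40), against -4.92 to -3.28 on the other 6, and 1 of its 3 probes did not separate the groups. All 8 ileal enterocyte markers were well above background on every array. Slide 1 held the 4 TetON-Sox2 arrays, slide 2 the Sox2xOct4 +DOX and rtTA +DOX arrays, and slide 3 those of Oct4 +DOX. The Y-linked gene Eif2s3y was well above background on the 4 arrays of slide 1 and on Oct4 +DOX replicate 1, and on none of the other 5. A comparison across slides therefore holds slide, and in most cases sex, together with genotype, and these cannot be told apart there. Since the 2 Oct4 +DOX arrays differed in Eif2s3y (1.78 and -7.86), they did not come from the same animal. The comparisons within a slide are Sox2xOct4 +DOX against rtTA +DOX and Sox2 +DOX against Sox2 -DOX.

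The probes that carry the results are shown here, since each is the whole of what was measured of its transcript. They are 60 bases long and are given 5′ to 3′ with the file's position on build mm8. All of them lie on the minus strand except those of Bmp2 and Id1. The 2 probes of Ihh lie 2013 bases apart and the 2 of Ptch1 lie 2549 bases apart, so that each pair gives separate readings of a gene.
Ihh probe A_52_P403398, chr1:74881054-74881113: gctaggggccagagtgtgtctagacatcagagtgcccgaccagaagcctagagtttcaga
Ihh probe A_51_P479444, chr1:74878981-74879040: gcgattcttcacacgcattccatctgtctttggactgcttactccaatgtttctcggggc
Bmp2 probe A_51_P185229, chr2:133252686-133252745: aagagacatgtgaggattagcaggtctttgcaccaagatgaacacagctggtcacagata
Ptch1 probe A_52_P598605, chr13:63518212-63518271: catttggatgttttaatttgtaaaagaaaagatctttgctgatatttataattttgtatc
Ptch1 probe A_51_P127435, chr13:63520821-63520880: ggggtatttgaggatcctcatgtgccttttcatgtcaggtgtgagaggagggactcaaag

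The Ptch1 probes differ in base composition, with 21.7% G and C in the first and 50% in the second. The 2 probes of Id1, in contrast, share 50 bases (capitals) and are nearly 1 measurement.
Id1 probe A_52_P533809, chr2:152428751-152428810: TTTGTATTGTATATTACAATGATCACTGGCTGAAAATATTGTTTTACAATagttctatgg
Id1 probe A_51_P385786, chr2:152428741-152428800: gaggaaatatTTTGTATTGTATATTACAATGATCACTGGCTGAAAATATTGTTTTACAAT

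Over the 5 groups, Ihh, the Hedgehog ligand of differentiated intestinal epithelium, was low on every array of the 2 groups with an Oct4 transgene, and Bmp2, a BMP ligand of the villus, was low on every array of the 2 groups given DOX with a Sox2 transgene. In Sox2xOct4 +DOX ileum both fell against rtTA +DOX, Ihh 4.16-fold and Bmp2 3.71-fold. Ptch1, the Hedgehog receptor, did not fall with Ihh in that group. It was lower in Oct4 +DOX than in Sox2xOct4 +DOX and in Sox2 +DOX, in comparisons across slides that were added after the data were seen. Each of these calls on Ihh, Bmp2 and Ptch1 was lost when certain single arrays were left out. Hhip, Bmp4, Bmp7 and Id1 passed the test in none of 10 comparisons.

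**Figure D1:**
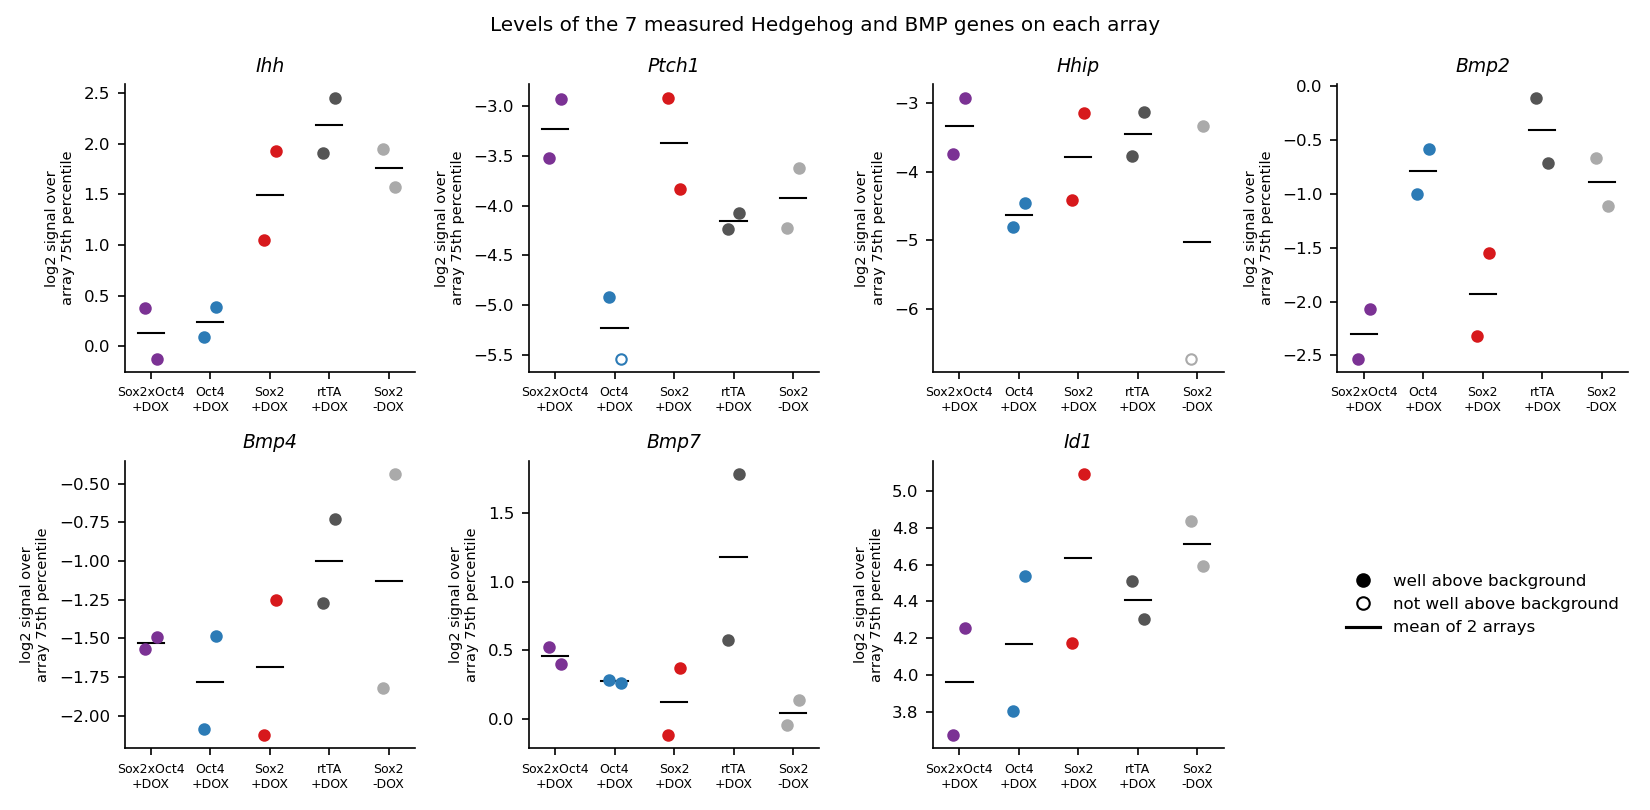
Level of each of the 7 measured genes (log2, relative to the 75th percentile of its array, brightest kept probe) on each array, by group. Points are arrays, open where not well above background, and bars are means of 2 arrays. Ihh lies between -0.13 and 0.38 on the 4 arrays with an Oct4 transgene and at 1.04 or above on the other 6.

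Of the ligands of the Hedgehog pathway, Ihh was measured well above background on all 10 arrays by both probes. With probe A_52_P403398 its level was 0.38 and -0.13 in Sox2xOct4 +DOX, 0.09 and 0.38 in Oct4 +DOX, 1.04 and 1.93 in Sox2 +DOX, 1.91 and 2.46 in rtTA +DOX, and 1.94 and 1.58 in Sox2 -DOX. The 4 arrays with an Oct4 transgene thus lay below the other 6. In order of level, Sox2xOct4 +DOX averaged 0.13 ± 0.35 (SD, n = 2 in each group), Oct4 +DOX 0.24 ± 0.21, Sox2 +DOX 1.49 ± 0.63, Sox2 -DOX 1.76 ± 0.26 and rtTA +DOX 2.18 ± 0.39. Of neighbouring groups only Oct4 +DOX and Sox2 +DOX did not overlap.

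With probe A_51_P479444 the level of Ihh was -0.31 and -0.27 in Sox2xOct4 +DOX, -0.63 and -0.40 in Oct4 +DOX, -0.20 and 1.26 in Sox2 +DOX, 1.82 and 1.37 in rtTA +DOX, and 1.06 and 0.57 in Sox2 -DOX. The order of the arrays was much the same, with r = 0.916 between the probes over the 10 arrays, but Sox2 +DOX replicate 1 came close to the arrays with Oct4.

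Within slide 2, Ihh fell in Sox2xOct4 +DOX against rtTA +DOX, with a log2 change of -2.06 ± 0.39 (SE, n = 2 against 2, limma adjusted p = 0.0235, 95% interval -2.95 to -1.17). The second probe gave -1.89 ± 0.46 and an adjusted p of 0.0506 over all kept probes in limma. Against rtTA +DOX and across slides, the log2 change of Ihh in Oct4 +DOX was -1.94 ± 0.39 (n = 2 against 2, limma adjusted p = 0.065). This did not pass the test, and with the second probe the change was -2.11 ± 0.46. The 2 Oct4 +DOX arrays were alike in Ihh (0.09 and 0.38), although Eif2s3y was well above background on the first only. Sox2xOct4 +DOX and Oct4 +DOX differed by -0.11 (95% interval -1.003 to 0.78) in a comparison that was added after the data were seen. The fall in Sox2xOct4 +DOX was no longer called when any of the 4 arrays compared was left out, at -2.33 to -1.78 with limma adjusted p of 0.0597 to 0.125.

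Within slide 1, the log2 change of Ihh in Sox2 +DOX against Sox2 -DOX was -0.27 ± 0.39 (n = 2 against 2, limma adjusted p = 0.68). This response and the one on slide 2 differed by 1.79 ± 0.55, with an unadjusted p of 0.0112 in the fit over all genes and a limma adjusted p of 0.32. None of the 7 genes passed that test, which called 0.168% of all genes.

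Markers of the epithelium were read beside Ihh as the summed signal of a list, in units of the array's 75th percentile. The 8 ileal enterocyte markers summed to 246 and 520 on the Sox2xOct4 +DOX arrays, 485 to 638 in Oct4 +DOX, 177 to 309 in Sox2 +DOX, 381 to 603 in rtTA +DOX and 557 to 624 in Sox2 -DOX. The 6 markers of epithelium as a whole summed to 540 to 631 in Sox2xOct4 +DOX, 1002 to 1312 in Oct4 +DOX, 833 to 947 in Sox2 +DOX, 627 to 1002 in rtTA +DOX and 1053 to 1106 in Sox2 -DOX. In Oct4 +DOX, where Ihh was low, the sum over these 6 genes was close to or above the top of the rtTA +DOX range, and that over the enterocyte markers was within it on replicate 1 and above it on replicate 2. On Sox2xOct4 +DOX replicate 2, where Ihh was -0.13, the enterocyte sum of 520 lay within the rtTA +DOX range, while on replicate 1 it lay below. The sum over the 6 markers of epithelium as a whole was 540 on replicate 1, below the rtTA +DOX range. It was 631 on replicate 2, at the lower end of that range. Lymphocyte markers were low where Ihh was. The 5 B and plasma cell markers summed to 17.9 to 25.4 in Sox2xOct4 +DOX, 17.0 to 17.2 in Oct4 +DOX, 22.8 to 51.6 in Sox2 +DOX, 47.8 to 52.3 in rtTA +DOX and 46.5 to 105 in Sox2 -DOX. The 6 T cell markers summed to 1.85 to 2.95 in Sox2xOct4 +DOX, 1.62 to 1.71 in Oct4 +DOX, 1.47 to 2.38 in Sox2 +DOX, 3.12 to 6.23 in rtTA +DOX and 6.45 to 8.41 in Sox2 -DOX, and so were low in all groups with an active transgene. Every gene of both lists was well above background on all arrays. The part of the epithelial and lymphocyte markers in the fall of Ihh was not tested. In whole tissue, fewer cells of a type and less RNA per cell cannot be told apart.

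Shh, the other Hedgehog ligand among the genes chosen, was well above background only on rtTA +DOX replicate 1, at -6.93 and in 5 of its 10 spots. It lay between -8.32 and -7.73 on the other 9 arrays. No fold is given for it, since both groups of every comparison had at most 1 array above background.

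Ptch1 was read by probe A_52_P598605 at -3.53 and -2.93 in Sox2xOct4 +DOX, -4.92 and -5.54 in Oct4 +DOX, -2.92 and -3.83 in Sox2 +DOX, -4.24 and -4.08 in rtTA +DOX, and -4.22 and -3.62 in Sox2 -DOX. It was well above background on all of these except Oct4 +DOX replicate 2. The Oct4 +DOX arrays lay below the other 8, and the Sox2xOct4 +DOX arrays lay above those of rtTA +DOX. In order of level, Sox2xOct4 +DOX averaged -3.23 ± 0.42 (SD, n = 2 in each group), Sox2 +DOX -3.37 ± 0.65, Sox2 -DOX -3.92 ± 0.43, rtTA +DOX -4.16 ± 0.12 and Oct4 +DOX -5.23 ± 0.44, and of neighbouring groups only the last 2 did not overlap.

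Neither difference of Ptch1 from rtTA +DOX passed the test. The log2 change was 0.93 ± 0.42 in Sox2xOct4 +DOX (n = 2 against 2, limma adjusted p = 0.22) and -1.07 ± 0.42 in Oct4 +DOX (adjusted p = 0.31). Between the DOX groups, in comparisons added after the data were seen and made across slides, Ptch1 was 4-fold higher in Sox2xOct4 +DOX than in Oct4 +DOX (log2 change 2.00 ± 0.42, n = 2 against 2, limma adjusted p = 0.0384). It was 3.61-fold lower in Oct4 +DOX than in Sox2 +DOX (-1.85 ± 0.42, limma adjusted p = 0.0379). In the first of these comparisons 1 of the 7 genes was called, where 4.36% of all genes were called and 2.36% were called higher. In the second it was again 1 of 7, where 6.86% of all genes were called and 2.79% were called lower. In the third such comparison, Sox2xOct4 +DOX against Sox2 +DOX, the log2 change of Ptch1 was 0.15 ± 0.42. There limma called 0 of the 7 genes and 2.6% of all genes at an adjusted p under 0.05. Ihh alone was under 0.05 unadjusted, with no share of all genes at that threshold set beside it.

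Both calls on Ptch1 rest on few arrays. The first was lost without either array of either group compared, of rtTA +DOX or of Sox2 -DOX (limma adjusted p 0.0594 to 0.167), without the filter on dim probes and with only the 4 arrays compared (0.0612 and 0.148), and under normexp with quantile normalization, which compresses dim signals, its log2 change was 0.60. The second was lost without either Oct4 +DOX array, Sox2 +DOX replicate 1, or either array of rtTA +DOX or of Sox2 -DOX (limma adjusted p 0.0583 to 0.21), and likewise without the filter and with only the 4 arrays compared (0.0605 and 0.122), and was -0.59 under normexp. The probe has a single spot on each array. It was not well above background on Oct4 +DOX replicate 2, so the sizes of both changes rest partly on a reading at background.

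The other Ptch1 probe, A_51_P127435, was dimmer and was well above background on 5 arrays, Sox2xOct4 +DOX (-6.07 and -4.93), Sox2 +DOX replicate 1 (-5.10) and rtTA +DOX (-6.75 and -5.34). As it was at background on both Oct4 +DOX arrays, it gives no size for either call, and limma called neither comparison with it. Its signal on Sox2 +DOX replicate 2 and on both Sox2 -DOX arrays, also at background, was lower still. Its correlation with the first probe over the 10 arrays was 0.592.

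The 4 markers of intestinal stem cells (Lgr5, Olfm4, Ascl2 and Smoc2) summed to 3.85 to 4.75 in Sox2xOct4 +DOX, 1.94 to 1.96 in Oct4 +DOX, 2.20 to 3.72 in Sox2 +DOX, 3.73 to 5.67 in rtTA +DOX, and 3.32 to 3.35 in Sox2 -DOX. Each of the 4 was well above background on all arrays. They were lowest in Oct4 +DOX, as Ptch1 was. Markers of mesenchyme were not lowest there. The 10 smooth muscle markers summed to 67.0 to 150 in Oct4 +DOX, 40.3 to 53.4 in Sox2 +DOX and 111 to 233 in rtTA +DOX. For the 10 fibroblast and matrix markers these sums were 26.2 to 40.3, 23.4 to 23.6 and 37.1 to 51.3. The part of any of these lists in the level of Ptch1 was not tested.

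**Figure D2:**
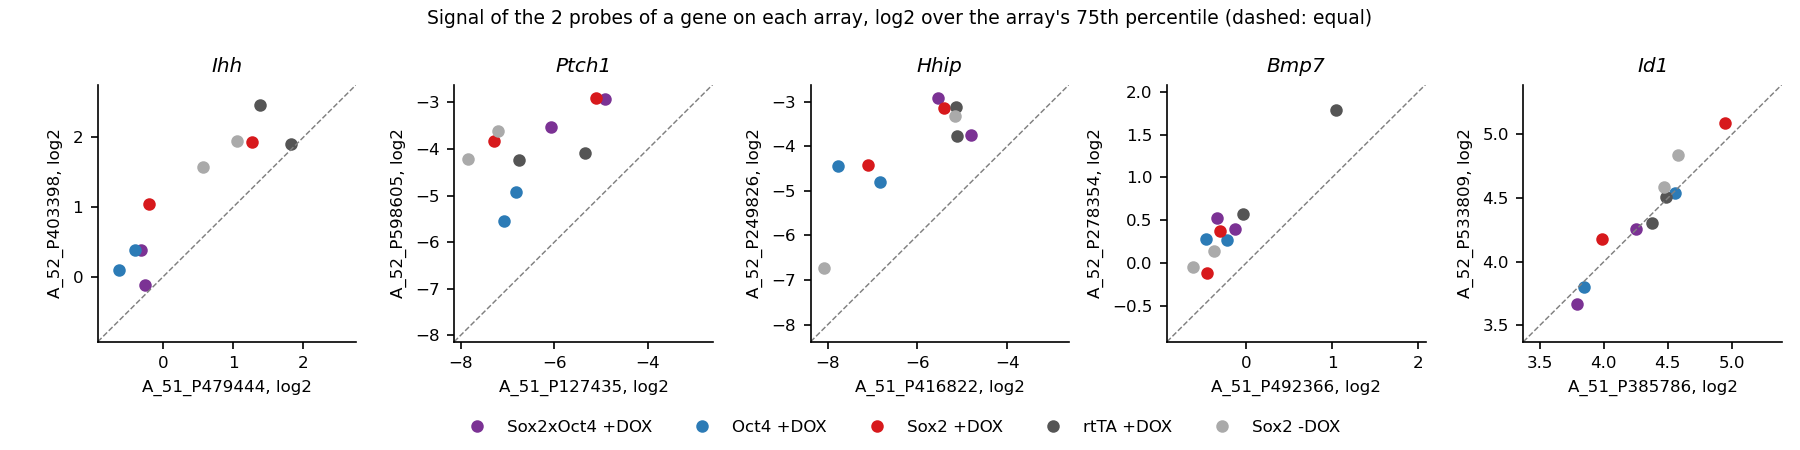
Level of the 2 probes of Ihh, Ptch1, Hhip, Bmp7 and Id1 on each array, on the log2 scale relative to the 75th percentile of its array. The dashed line marks equal values. The correlation is 0.967 for Id1, 0.960 for Bmp7, where 1 rtTA +DOX array stands apart, 0.916 for Ihh, 0.826 for Hhip and 0.592 for Ptch1.

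Hhip binds Hedgehog ligands at the cell surface and removes them. By its brighter probe it had levels of -3.75 and -2.92 in Sox2xOct4 +DOX, -4.81 and -4.45 in Oct4 +DOX, -4.42 and -3.14 in Sox2 +DOX, -3.77 and -3.12 in rtTA +DOX, and -6.73 and -3.33 in Sox2 -DOX. The 2 Sox2 -DOX arrays were far apart, and the lower was not well above background. With that spread the 95% interval of its log2 change was wide, -2.09 to 2.32 for Sox2xOct4 +DOX against rtTA +DOX. The Oct4 +DOX arrays lay below those of rtTA +DOX (log2 change -1.18 ± 0.96), and a limma adjusted p of 0.67 did not pass. The dimmer probe was at background on both Oct4 +DOX arrays and gives no size there.

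Gli1, a Gli factor that is itself a target of the pathway, was well above background only on rtTA +DOX replicate 1 (-6.81, in 6 of its 10 spots). The other 9 arrays gave -6.97 to -6.07, so no change of this gene could be measured.

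Bmp2, on the log2 scale, had levels of -2.53 and -2.07 in Sox2xOct4 +DOX, -0.997 and -0.58 in Oct4 +DOX, -2.32 and -1.55 in Sox2 +DOX, -0.10 and -0.71 in rtTA +DOX, and -0.66 and -1.11 in Sox2 -DOX. All 4 arrays of the Sox2 transgene with DOX lay below the other 6. The 6 to 10 unflagged spots of the probe on an array differed by only 0.023 to 0.072 (SD of log2). In order of level, Sox2xOct4 +DOX averaged -2.30 ± 0.33 (SD, n = 2 in each group), Sox2 +DOX -1.93 ± 0.55, Sox2 -DOX -0.89 ± 0.32, Oct4 +DOX -0.79 ± 0.29 and rtTA +DOX -0.41 ± 0.43. Of neighbouring groups only Sox2 +DOX and Sox2 -DOX did not overlap.

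**Figure D3:**
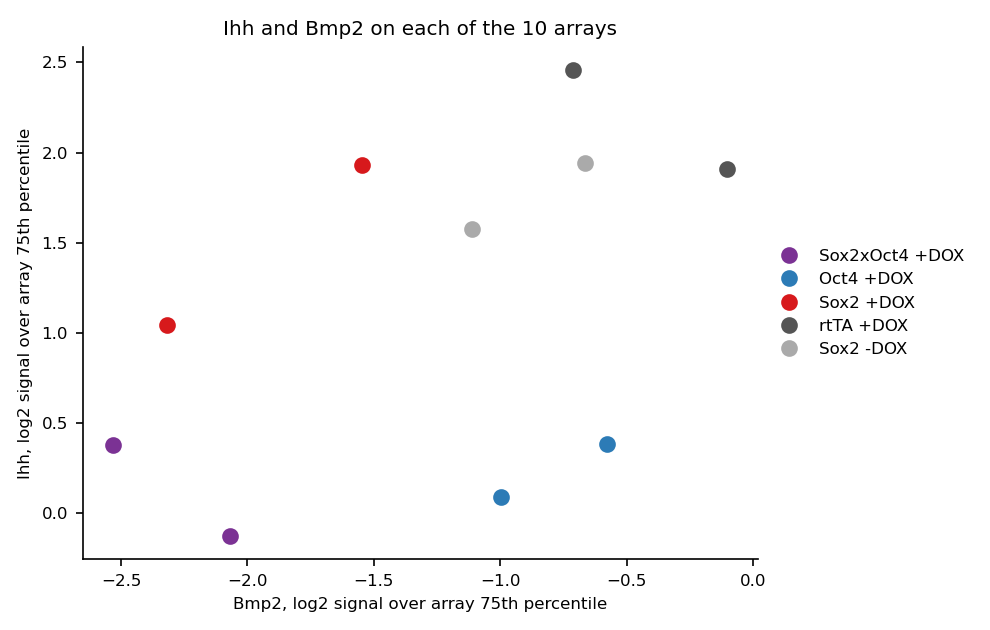
Level of Ihh against that of Bmp2 on each of the 10 arrays (both on the log2 scale relative to the 75th percentile of its array). The 2 Sox2xOct4 +DOX arrays are low in both genes, the 2 Oct4 +DOX arrays in Ihh, and the 2 Sox2 +DOX arrays in Bmp2.

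Bmp2 fell in Sox2xOct4 +DOX against rtTA +DOX, with a log2 change of -1.89 ± 0.39 (SE, n = 2 against 2, limma adjusted p = 0.0302, 95% interval -2.78 to -1.001). It also fell 2.88-fold in Sox2 +DOX against the same rtTA +DOX arrays (-1.52 ± 0.39, limma adjusted p = 0.0494), across slides. Against Sox2 -DOX, on the same slide, Sox2 +DOX was lower by less, with a log2 change of -1.05 ± 0.39 (n = 2 against 2, limma adjusted p = 0.13), which did not pass the test. The arrays of these 2 groups did not overlap, as was so for 66.4% of all genes. In Oct4 +DOX against rtTA +DOX the change was -0.38 (95% interval -1.27 to 0.51). The interaction of the 2 transgenes, taken across slides, was 0.01 (95% interval -1.24 to 1.27). That interval leaves room for a departure from additivity of more than 2-fold in either direction. Pou5f1 signal was also lower in Sox2xOct4 +DOX (2.64 and 0.92) than in Oct4 +DOX (6.20 and 4.79). A difference in transgene level cannot be told apart from the combination of transgenes in this interaction.

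The calls on Bmp2 depended on single arrays. The fall in Sox2xOct4 +DOX was lost without either rtTA +DOX array, Sox2xOct4 +DOX replicate 1 or either Sox2 -DOX array (limma adjusted p 0.0506 to 0.212). The fall in Sox2 +DOX against rtTA +DOX was lost in 7 of the 10 fits without 1 array, namely either array of rtTA +DOX, Oct4 +DOX or Sox2 -DOX, or Sox2 +DOX replicate 1 (limma adjusted p 0.0608 to 0.275). It was also lost without the filter on dim probes, with every kept probe tested and with only the 4 arrays compared (limma adjusted p 0.051 to 0.0901), and that last fit ended the fall in Sox2xOct4 +DOX of both Bmp2 (0.0774) and Ihh (0.0644). The summed enterocyte markers had their lowest values in the same 2 groups as Bmp2, 246 and 520 in Sox2xOct4 +DOX and 177 to 309 in Sox2 +DOX, although the 520 lay within the rtTA +DOX range. Their part in the result was not tested.

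Bmp4, a BMP ligand of the villus and intercrypt mesenchyme and a known Hedgehog target there, had levels of -1.57 and -1.49 in Sox2xOct4 +DOX, -2.08 and -1.48 in Oct4 +DOX, -2.13 and -1.25 in Sox2 +DOX, -1.27 and -0.73 in rtTA +DOX, and -1.82 and -0.44 in Sox2 -DOX. Sox2xOct4 +DOX and Oct4 +DOX lay below rtTA +DOX, and all other pairs of groups overlapped. Its log2 change was -0.53 (95% interval -1.70 to 0.63) in Sox2xOct4 +DOX and -0.78 (-1.95 to 0.38) in Oct4 +DOX against rtTA +DOX. The summed signal of 10 smooth muscle markers differed widely between the 2 Sox2xOct4 +DOX arrays, at 38.5 and 327. It was 67.0 to 150 in Oct4 +DOX, 40.3 to 53.4 in Sox2 +DOX, 111 to 233 in rtTA +DOX and 95.6 to 132 in Sox2 -DOX. The 10 fibroblast and matrix markers summed to 23.8 and 60.7 on the Sox2xOct4 +DOX arrays. They summed to 26.2 to 40.3 in Oct4 +DOX, 23.4 to 23.6 in Sox2 +DOX, 37.1 to 51.3 in rtTA +DOX and 25.1 to 40.9 in Sox2 -DOX. The part of these markers in the level of Bmp4 was not tested.

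Bmp7, a BMP ligand expressed in gut epithelium, had levels of 0.53 and 0.40 in Sox2xOct4 +DOX, 0.28 and 0.26 in Oct4 +DOX, -0.12 and 0.37 in Sox2 +DOX, 0.57 and 1.79 in rtTA +DOX, and -0.05 and 0.13 in Sox2 -DOX. The value of rtTA +DOX replicate 2 stood above the rest with both probes, and by the brighter probe the other 9 arrays lay between -0.12 and 0.57. Against rtTA +DOX the log2 change was -0.72 ± 0.40 in Sox2xOct4 +DOX, -0.91 ± 0.40 in Oct4 +DOX and -1.05 ± 0.40 in Sox2 +DOX, with limma adjusted p-values of 0.13 to 0.38. Between the control groups, rtTA +DOX against Sox2 -DOX, it was 1.14 ± 0.40 with a limma adjusted p of 0.77.

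Id1 encodes an inhibitor of basic helix-loop-helix factors and is induced by BMP through Smads. Its levels were 3.67 and 4.26 in Sox2xOct4 +DOX, 3.80 and 4.54 in Oct4 +DOX, 4.18 and 5.09 in Sox2 +DOX, 4.51 and 4.30 in rtTA +DOX, and 4.84 and 4.59 in Sox2 -DOX. The group means ranged between 3.96 and 4.71, a narrower spread than that between the 2 Sox2 +DOX arrays. Its log2 change was -0.44 (95% interval -1.38 to 0.49) in Sox2xOct4 +DOX against rtTA +DOX and -0.08 (-1.02 to 0.86) in Sox2 +DOX against Sox2 -DOX, so that a 2-fold fall lay within both intervals.

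Barx1, a homeobox factor of stomach mesenchyme, stayed at background on all 10 arrays, at -9.00 to -7.64. Of 12 markers of stomach and foregut epithelium, 7 to 8 were well above background in Sox2xOct4 +DOX, 6 to 9 in Oct4 +DOX, 6 in Sox2 +DOX, 4 to 6 in rtTA +DOX and 5 to 6 in Sox2 -DOX, and Gkn1, Cblif and Pgc were so on none. Their summed signal was 12.8 and 27.3 in Sox2xOct4 +DOX and 5.76 and 10.9 in Sox2 +DOX, against 1.35 to 2.63 on the other 6 arrays.

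**Figure D4:**
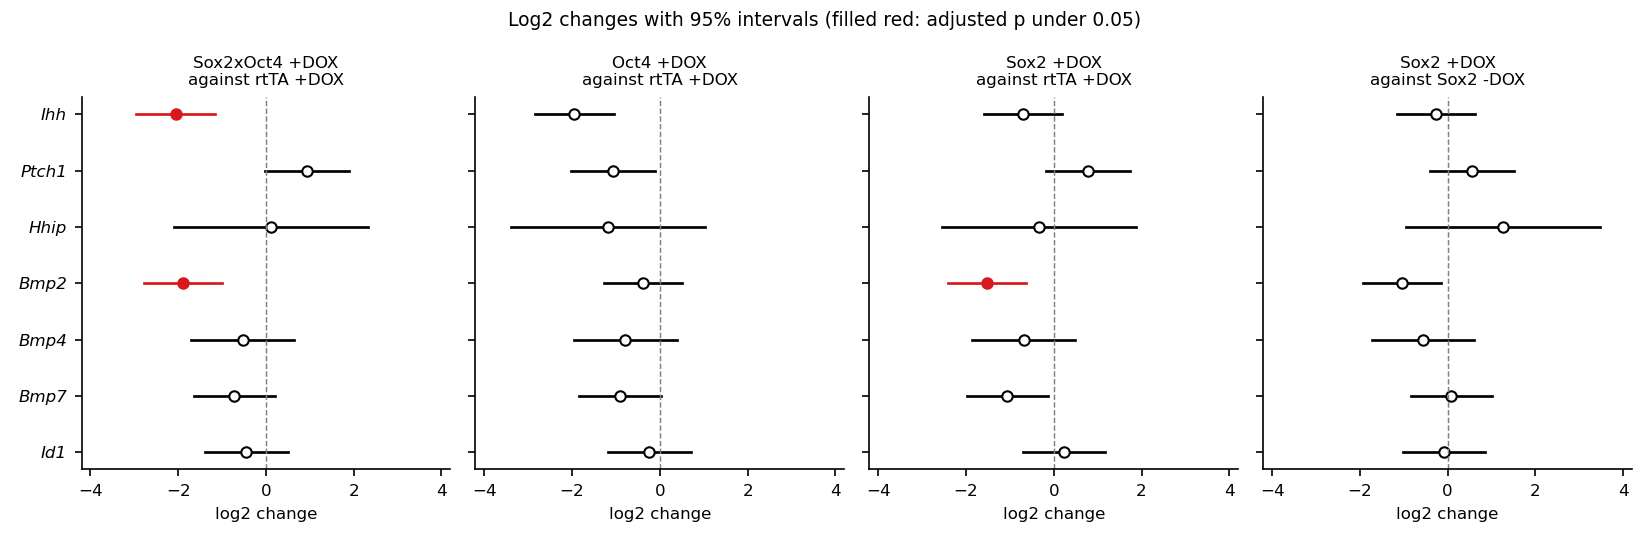
Log2 change of each of the 7 genes in 4 comparisons (points) with its 95% interval from limma (lines). Filled red points were called at an adjusted p under 0.05. These are Ihh (-2.06) and Bmp2 (-1.89) in Sox2xOct4 +DOX against rtTA +DOX, and Bmp2 (-1.52) in Sox2 +DOX against rtTA +DOX.

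Counted over the 7 genes, 2 were called in Sox2xOct4 +DOX against rtTA +DOX, both lower, where 6.34% of all genes were called and 3.15% were called lower. Their median log2 change was -0.53, against 0.07 over all genes. In Sox2 +DOX against Sox2 -DOX limma called 0 of 7 (1 at an unadjusted p under 0.05), where 7.83% of all genes were called and 27.1% were under that unadjusted p, and the medians were -0.08 for the 7 genes and -0.10 for all. In Oct4 +DOX against rtTA +DOX limma called 0 of 7 (2 at an unadjusted p under 0.05), where 1.01% of all genes were called and 13.3% were under that unadjusted p. In that comparison, which was made across slides, all 7 changes were negative, with a median of -0.91 against 0.01 over all genes. In Sox2 +DOX against rtTA +DOX 1 of 7 was called, lower, where 8.37% of all genes were called and 5.14% were called lower, and the medians were -0.69 and -0.04. The interaction of the transgenes called 0 of 7 in limma and 1.42% of all genes at an adjusted p under 0.05, and 0 of the 7 were under 0.05 unadjusted. The 3 comparisons against rtTA +DOX share its arrays. Between the control groups, rtTA +DOX against Sox2 -DOX, 5 of the 7 changes were positive and 2 negative. The medians there were 0.42 for the 7 genes and 0.01 for all, so rtTA +DOX was itself the higher control for most of the 7. The arrays of the 2 groups did not overlap for 6 of the 7 genes in Sox2xOct4 +DOX against rtTA +DOX, where 52.7% of all genes did not overlap. The same held for 5 of 7 in Oct4 +DOX against rtTA +DOX (46.3% of all genes), for 3 of 7 in Sox2 +DOX against rtTA +DOX (63%) and for 1 of 7 in Sox2 +DOX against Sox2 -DOX (66.4%).

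Other genes of the pathways were taken from 10 lists, of which 89 of 102 genes were tested. In Sox2xOct4 +DOX against rtTA +DOX 3 of the 89 rose and 2 fell, where 3.19% of all genes were called higher and 3.15% lower, so the share was close to the background. The median log2 change was -0.04, against 0.07 over all genes. In Sox2 +DOX against Sox2 -DOX 3 rose and 1 fell, where 3.03% of all genes were called higher and 4.8% lower, and the medians were -0.20 for the 89 genes and -0.10 for all. In Oct4 +DOX against rtTA +DOX limma called 0 of the 89, with medians of -0.25 and 0.01. By list, the calls in Sox2xOct4 +DOX were 2 of 11 BMP and GDF ligands, 2 of 9 Smads and regulators and 1 of 9 genes of Hedgehog transduction. Those in Sox2 +DOX against Sox2 -DOX were 1 of 11 BMP and GDF ligands, 1 of 18 BMP inhibitors, 1 of 9 BMP response genes and 1 of 6 genes of stomach mesenchyme. In both comparisons none of the 6 genes of ligand processing, 8 of Hedgehog reception, 7 of Hedgehog-responsive mesenchyme and 8 BMP receptors was called.

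Among the ligands, Gdf5, a BMP-family ligand best known from joints, had levels of -1.13 and -1.15 in Sox2xOct4 +DOX, -3.31 and -1.77 in Oct4 +DOX, -4.78 and -4.58 in Sox2 +DOX, -5.04 and -4.37 in rtTA +DOX, and -4.32 and -4.42 in Sox2 -DOX. It was high on the arrays with an Oct4 transgene and highest with both transgenes. It rose 11.8-fold in Sox2xOct4 +DOX against rtTA +DOX (log2 change 3.56 ± 0.48, n = 2 against 2, limma adjusted p = 0.00782), a call that was lost without rtTA +DOX replicate 1 (adjusted p = 0.073). Under normexp with quantile normalization its log2 change was 1.80.

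Inhbb, the beta B subunit of activins and inhibins, had levels of -0.57 and -2.003 in Sox2xOct4 +DOX against -3.36 and -3.32 in rtTA +DOX. It was called at the edge of the threshold (2.06 ± 0.50, n = 2 against 2, limma adjusted p = 0.0497). The call was lost in 9 of the 10 fits without 1 array, the exception being that without Sox2xOct4 +DOX replicate 2, and without replicate 1 the log2 change was 1.34. Of the transduction genes, Kif7, a ciliary kinesin that regulates Gli processing, had levels of -3.02 and -3.89 in Sox2xOct4 +DOX and -5.35 and -5.94 in rtTA +DOX (2.19 ± 0.53, n = 2 against 2, limma adjusted p = 0.0484). Of the 10 fits without 1 array, only those without an Oct4 +DOX array kept the call, and under normexp with quantile normalization the change of Kif7 was 0.63. Over the 9 other alternatives, Inhbb was called in 3 and Kif7 in 2. These 9 include the slide block, which leaves within-slide values as they were.

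The inhibitory Smads fell together in Sox2xOct4 +DOX. Smad6, which blocks BMP receptors and is itself induced by BMP, had levels of -0.70 and -0.67 in Sox2xOct4 +DOX against 1.86 and 0.76 in rtTA +DOX, a 3.99-fold fall (-1.997 ± 0.43, n = 2 against 2, limma adjusted p = 0.0352). Smad7, which blocks TGF-beta and BMP receptors, had levels of -1.35 and -0.67 in Sox2xOct4 +DOX against 1.61 and 0.92 in rtTA +DOX, a 4.85-fold fall (-2.28 ± 0.54, n = 2 against 2, limma adjusted p = 0.0465). The arrays did not overlap for either gene, as was so for 52.7% of all genes in that comparison. In Sox2 +DOX against Sox2 -DOX their changes were -1.34 ± 0.43 and -1.65 ± 0.54 with limma adjusted p-values of 0.095 and 0.1, which did not pass. Both calls in Sox2xOct4 +DOX were lost without either array of either group compared, and that of Smad7 also without either array of Sox2 -DOX or of Oct4 +DOX.

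Msx2, a homeobox gene induced by BMP, had levels of -4.31 and -4.87 in Sox2 +DOX and was not well above background in the other 4 groups. Its signal with DOX was at least 2.58-fold that in Sox2 -DOX, measured against the lowest signal well above background (limma adjusted p = 0.00491, n = 2 against 2). Without Sox2 -DOX replicate 1 its adjusted p was 0.0505, and under normexp with quantile normalization its log2 change was 0.55, still called. In Sox2xOct4 +DOX, which carries the same transgene, Msx2 was at least 3.62-fold lower than in Sox2 +DOX in the comparison added after the data were seen (limma adjusted p = 0.0168). That comparison was made across slides.

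Fst, whose product follistatin binds activins and some BMPs, had levels of -1.59 and -2.25 in Sox2 +DOX against -7.40 and -4.77 in Sox2 -DOX, the first of which was not well above background. It rose (log2 change 4.16 ± 0.77, n = 2 against 2, limma adjusted p = 0.0187), by a size that the array at background partly sets. With all signals raised to a common floor, an alternative added after the data were seen, the log2 change was 3.38 (adjusted p = 0.0123). Without Sox2 -DOX replicate 1 the log2 change was 2.85 with an adjusted p of 0.077, and without Sox2 +DOX replicate 1 it was 3.83 with an adjusted p of 0.13. Under normexp with quantile normalization it was 1.62. Sfrp2, a secreted Wnt inhibitor placed in the list of stomach mesenchyme, had levels of -2.80 and -4.24 in Sox2 +DOX and was not well above background in Sox2 -DOX, so it was at least 5.41-fold higher (limma adjusted p = 0.0261, n = 2 against 2). That call was lost without either array of Sox2 -DOX or Sox2 +DOX replicate 1 (adjusted p 0.12 to 0.17), and its log2 change was 0.84 under normexp with quantile normalization.

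Bmp8a, a BMP ligand with a close paralogue in Bmp8b, had levels of -4.16 and -1.90 in Sox2 +DOX against 0.56 and 0.47 in Sox2 -DOX. It fell 11.7-fold (-3.54 ± 0.83, n = 2 against 2, limma adjusted p = 0.0393), although the 2 Sox2 +DOX arrays were far apart, and the call was lost in 7 of the 10 fits without 1 array, the exceptions being those without Sox2 +DOX replicate 2 or either Sox2xOct4 +DOX array. The Bmp8b probe gave -1.20 ± 0.83 in the same comparison, and cross-hybridization between the paralogues was not tested. Of the 9 pathway genes described here, Gdf5 and Msx2 kept their calls when only the 4 arrays compared were fitted, and the other 7 did not (limma adjusted p 0.0568 to 0.116).

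**Figure D5:**
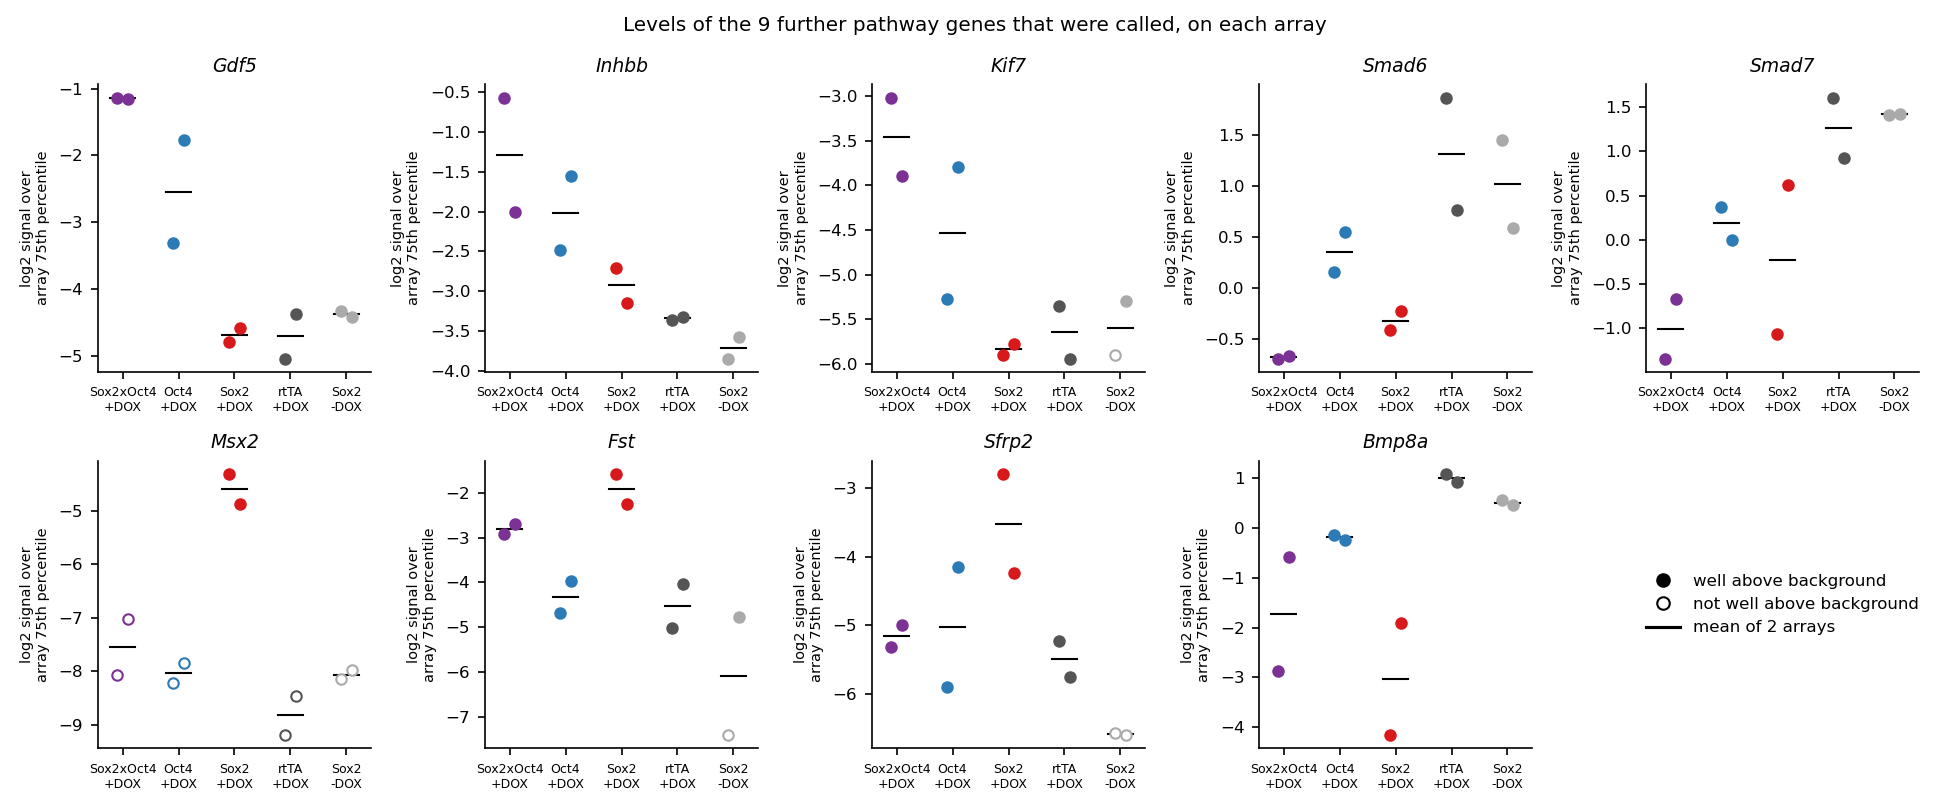
Levels of the 9 further Hedgehog and BMP pathway genes that were called, on each array by group, on the log2 scale relative to the 75th percentile of its array. Points are arrays, open where not well above background, and bars are means of 2 arrays. Gdf5 stands at -1.13 and -1.15 on the Sox2xOct4 +DOX arrays, and Msx2 is above background only in Sox2 +DOX.

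Across slides, Sox2 +DOX against rtTA +DOX called 1 of the 89 genes higher (Msx2) and 3 lower, Bmp8a, Gli3 and Id4, the last 2 named after their values were seen. Gli3, the Gli factor that acts mainly as a repressor, had levels of -4.16 and -4.36 in Sox2 +DOX against -2.73 and -2.50 in rtTA +DOX (limma adjusted p = 0.0181, n = 2 against 2), while within slide 1 its change was -0.61 (adjusted p = 0.24). Id4 fell by 1.44 (limma adjusted p = 0.0494), and by 1.15 within slide 1, which did not pass (adjusted p = 0.094). In rtTA +DOX against Sox2 -DOX, the 2 groups without an active transgene, limma called 0 of the 7 genes and 0% of all 19056 (1 of the 7, Bmp7, and 5.61% of all genes at an unadjusted p under 0.05).

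As a description over the 10 arrays, the genes whose level followed Ihh most closely were Sntb2 (Pearson r = 0.945) and Oat (r = 0.929), followed by a transcript with no gene name. For Ptch1 they were Degs1 (r = 0.965), an unnamed cDNA and the stem cell marker Lgr5 (r = 0.947). For Hhip they were Ramp2 (r = 0.942), Tril (r = 0.921) and the endothelial gene Eng (r = 0.917). For Bmp2 they were Gas2l1 (r = 0.990), Urgcp (r = 0.986) and Usp12 (r = 0.985), and for Bmp4 Pcdh7 (r = 0.953), Septin4 (r = 0.933) and Prss57 (r = 0.930). For Bmp7 they were Slc23a1 (r = 0.918), Tac4 (r = 0.883) and the stem cell marker Smoc2 (r = 0.848), and for Id1 Atp8a2 (r = 0.943), Ankmy2 (r = 0.867) and an unnamed cDNA. Each is the top of a ranking of all genes tested, over arrays that share slides and groups. Among the 7 genes themselves, r over the 10 arrays was 0.62 for Ihh with Id1, 0.02 for Ihh with Ptch1, 0.51 for Ihh with Bmp4, 0.48 for Ihh with Bmp2, 0.43 for Bmp2 with Id1 and -0.72 for Ptch1 with Bmp2.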

How the data were processed

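Ileum RNA was labelled with Cy3 and hybridized to 10 one-colour arrays, per the labels' protocols. Each deposited scanner file gives an intensity for every spot, with the background already taken off by the scanner software, per the file headers (Feature Extraction 9.5.3.1, 10.7.1.1 and 10.7.3.1 for slides 1 to 3, while the submitters' processing notes name 9.1). A score with no stated unit, the authors' deposited normalized value for the 4 TetON-Sox2 arrays, served only as an alternative.

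Flagged spots (45 to 65 per array) were left out, spots of a probe were averaged, and the array's 75th percentile was subtracted after taking log2. Of 41174 probes, 31 had no unflagged spot on some array. A probe was kept (28761) when it was well above background on each array of 1 or more groups, and the brightest stood for its gene. Gene names came through RefSeq tables (80.2% of probes) or from the file. No probe was saturated. A single limma model (limma 3.58.1, R 4.3.3) held the 5 group means, with 5 residual and 3.30 prior degrees of freedom, Benjamini-Hochberg adjustment over 19056 genes and a call at an adjusted p under 0.05. Where a group lay at background, its lowest probe well above background set the bound of the fold. The SE of a log2 change had a median of 0.39, and the number of arrays limits the precision.

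Of 10 comparisons 7 were planned, and 3 (those among Sox2xOct4 +DOX, Oct4 +DOX and Sox2 +DOX) were added after the data were seen. The members and the pathway and marker lists were chosen with earlier results of these data known. All members are named, with pathway genes called within a slide, the 3 genes most like each member, and Sox2, Pou5f1 and Sox21. Replicate numbers did not pair the samples (correlation of the deviations of same-numbered arrays -0.13 to 0.27). Alternatives were no filter, quantile normalization with and without normexp (offset 50), every kept probe, a variance trend, only the groups compared, replicate and slide blocks, the authors' table, a floor (added later) and leaving out each array. The model was tested on simulated data. Figures were drawn with Python 3.11.15 and matplotlib 3.10.9.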

Additional observations from a re-analysis of the deposited data

Results flagged for a closer look

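Msx2 gave a log2 interaction of the 2 transgenes of -3.75 ± 0.61 (limma adjusted p = 0.0322), a test of departure from additivity. Its levels were -8.06 and -7.02 in Sox2xOct4 +DOX, -8.22 and -7.84 in Oct4 +DOX, -4.31 and -4.87 in Sox2 +DOX, and -9.20 and -8.45 in rtTA +DOX, and it was well above background only in Sox2 +DOX, so the size of the difference is set partly by signals at background. The groups of this test lie across slides, so slide and sex cannot be told apart from genotype in it. Pou5f1 read 2.64 and 0.92 in Sox2xOct4 +DOX against 6.20 and 4.79 in Oct4 +DOX. Sox21, by its brightest probe, read 0.98 and 0.44 in Sox2xOct4 +DOX against 3.33 and 1.40 in Sox2 +DOX. A difference in transgene level therefore cannot be told apart from the combination of transgenes either. No interaction was called for the 7 measured members, and groups of 2 arrays are too small for a test of single outlying arrays.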

How the results depend on the processing

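Taking each comparison with each alternative, including each array left out, the count of members called moved by over 1.5 times in 42 cases and did not in 142. In Sox2xOct4 +DOX against rtTA +DOX the count was 0, in place of 2, when only the 4 arrays compared were fitted. In Sox2 +DOX against rtTA +DOX it was 0, in place of 1, under that fit, without the filter, with the replicate block and with every kept probe tested. In Oct4 +DOX against rtTA +DOX it was 1 (Ihh), in place of 0, with a variance trend. Sox2xOct4 +DOX against Oct4 +DOX gave 0, in place of 1, under normexp with quantile normalization, without the filter, with only the arrays compared and with the replicate block, and 2 under quantile normalization alone. Oct4 +DOX against Sox2 +DOX gave 0, in place of 1, under normexp, without the filter and with only the arrays compared. Leaving out 1 array gave 0 to 2 members in Sox2xOct4 +DOX against rtTA +DOX and 0 to 1 in Sox2 +DOX against rtTA +DOX, Sox2xOct4 +DOX against Oct4 +DOX and Oct4 +DOX against Sox2 +DOX. The replicate block moved no other count of members, though Smad7, Kif7 and Inhbb lost their calls under it (limma adjusted p 0.0534 to 0.0614), and the slide block left the within-slide values as they were. No called change of a member or pathway gene turned its sign under any alternative run.

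Over all genes, fitting only the arrays compared gave 473 calls in place of 1208 in Sox2xOct4 +DOX against rtTA +DOX, 640 in place of 1493 in Sox2 +DOX against Sox2 -DOX and 936 in place of 1595 in Sox2 +DOX against rtTA +DOX. Without the filter these were 776, 932 and 1045, and the authors' table gave 693 for the second. The comparisons of Sox2xOct4 +DOX with Oct4 +DOX, of Sox2xOct4 +DOX with Sox2 +DOX and of Oct4 +DOX with Sox2 +DOX gave 68 in place of 830, 52 in place of 495 and 369 in place of 1307 when only their arrays were fitted, and the first gave 546 without the filter. The interaction gave 105 to 173 in place of 270 under these settings and normexp, and the difference between the 2 responses gave 7 to 16 in place of 32 under normexp and a variance trend. The control groups gave 13 in place of 0 when only their arrays were fitted, and 2 with a variance trend or the replicate block. Normexp gave 116 in place of 192 in Oct4 +DOX against rtTA +DOX. Without 1 array the counts were 105 to 1249 in Sox2xOct4 +DOX against rtTA +DOX, 165 to 1744 in Sox2 +DOX against Sox2 -DOX and 35 to 215 in Oct4 +DOX against rtTA +DOX. Under normexp the share of calls that were higher was 49.3% in place of 38.7% in Sox2 +DOX against Sox2 -DOX, with the median of all genes shifted by 0.11, 49.7% in place of 38.6% in Sox2 +DOX against rtTA +DOX and 52.7% in place of 67.7% in Sox2xOct4 +DOX against Sox2 +DOX. Dim probes limit Shh, Gli1, Barx1, Hhip and the second Ptch1 probe.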
